A study of Mus musculus with 8 samples.

Results

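The ISG15 conjugation system was examined in granulocyte-macrophage progenitors (GMP), bone marrow cells that give rise to granulocytes and monocytes. Its 6 genes were taken as a set: Isg15, Usp18, Uba7, Ube2l6, Herc6 and Trim25. Every array probe whose platform gene symbol was one of these names was taken, 7 of 25697 probes. That rule uses names alone, but the set itself was chosen with earlier results of these arrays known. The probes covered 5 of the 6 genes, among 16593 genes on the array, since the platform annotation lists no probe for Herc6. The samples were 4 labelled DKO, from mice lacking SSB1 and SSB2, and 4 labelled Control, from wild-type mice. SSB1 and SSB2, encoded by Nabp2 and Nabp1, bind single-stranded DNA. All 8 samples came from female C57BL/6 mice, and the sorted cells were low for lineage markers, c-Kit+ and Sca-1-, with CD34 and CD16/32 both high. The sources used here give neither the age of the mice nor how the genes were deleted. They do not say that the samples were separate mice either, so the p-values below reflect sample-to-sample spread that could be technical. In bulk RNA, fewer cells of a type and less RNA per cell cannot be told apart.

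ISG15 is a ubiquitin-like protein that is induced by type I interferon and is joined to other proteins through an enzyme chain that parallels that of ubiquitin. Uba7 is the activating enzyme (E1), Ube2l6 the conjugating enzyme (E2), and Herc6 the main ligase (E3) in mice, where Trim25 has also been described as an ISG15 ligase. Usp18 removes ISG15 from its targets and, apart from its protease activity, binds the interferon receptor subunit IFNAR2 and dampens interferon signalling.

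The modifier and the enzyme that removes it were higher in DKO GMP, while the activating enzyme showed no called difference and the conjugating enzyme was near or below the detection limit. Of the 7 probes, 6 had a detection p under 0.05 on at least 4 of the 8 arrays and were tested with limma among 10856 probes. Of these 6, 5 probes of 3 genes were higher in DKO at an adjusted p under 0.05 and 0 were lower (also 0 at an unadjusted p under 0.05 in limma), against a background of 22.7% of all tested probes called in either direction. Of all tested probes, 10.4% were called higher in DKO and 12.4% lower. A Usp18 probe among those called passed the detection filter through the DKO arrays alone, and the count of 3 genes does not rest on it. The count does rest on Trim25, whose call was lost in 9 of 18 other settings of processing or samples, leaving 2 genes. The only member gene tested and not called was Uba7.

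The arrays differed in signal, and how far this affected the reading of dim probes was not tested. Mean intensity ran from 380 to 622 on the DKO arrays and from 605 to 736 on the control arrays, and DKO 1 was the dimmest. Between 9774 and 11103 probes were detected on the DKO arrays and between 10740 and 11227 on the control arrays. The targeted gene Nabp2 read 7.14 ± 0.49 normalized log2 units in DKO and 8.82 ± 0.46 in control (SD, n = 4 each) on its brighter probe, a difference of -1.68 (limma adjusted p = 0.00198). Its second probe differed by -0.41 (limma adjusted p = 0.355), and the Nabp1 probe was detected on 0 of 8 arrays. Whether these probes lie in the deleted parts was not tested.

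Isg15 encodes the modifier itself. Its probe, detected on all 8 arrays, had deposited intensities of 1367, 779.5, 1372 and 1338 in DKO samples 1 to 4, against 257, 273, 327 and 289 in control samples 1 to 4. Every DKO sample exceeded every control sample, and the lowest DKO intensity, in DKO 2, was still above the highest control intensity. The means were 1214 ± 290 in DKO and 286.6 ± 30.0 in control (SD, n = 4 each), a ratio of raw intensities of 4.24. After background correction and quantile normalization the log2 values were 11.36, 9.60, 10.34 and 10.11 in DKO, against 7.13, 6.69, 7.42 and 7.37 in control. On that scale too no values of the groups overlapped, as for 27.6% of all tested probes, and DKO 1 read highest. The difference was 3.20 (SE 0.32, 95% interval 2.49 to 3.91, limma adjusted p = 0.000145), or 9.19-fold. This was rank 3 of 10856 tested probes by the size of the rise. The fold depended on the background correction: it was 5.48 on log2 intensities with no correction and 5.19 in the authors' processed values, both past the threshold.

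**Figure D1:**
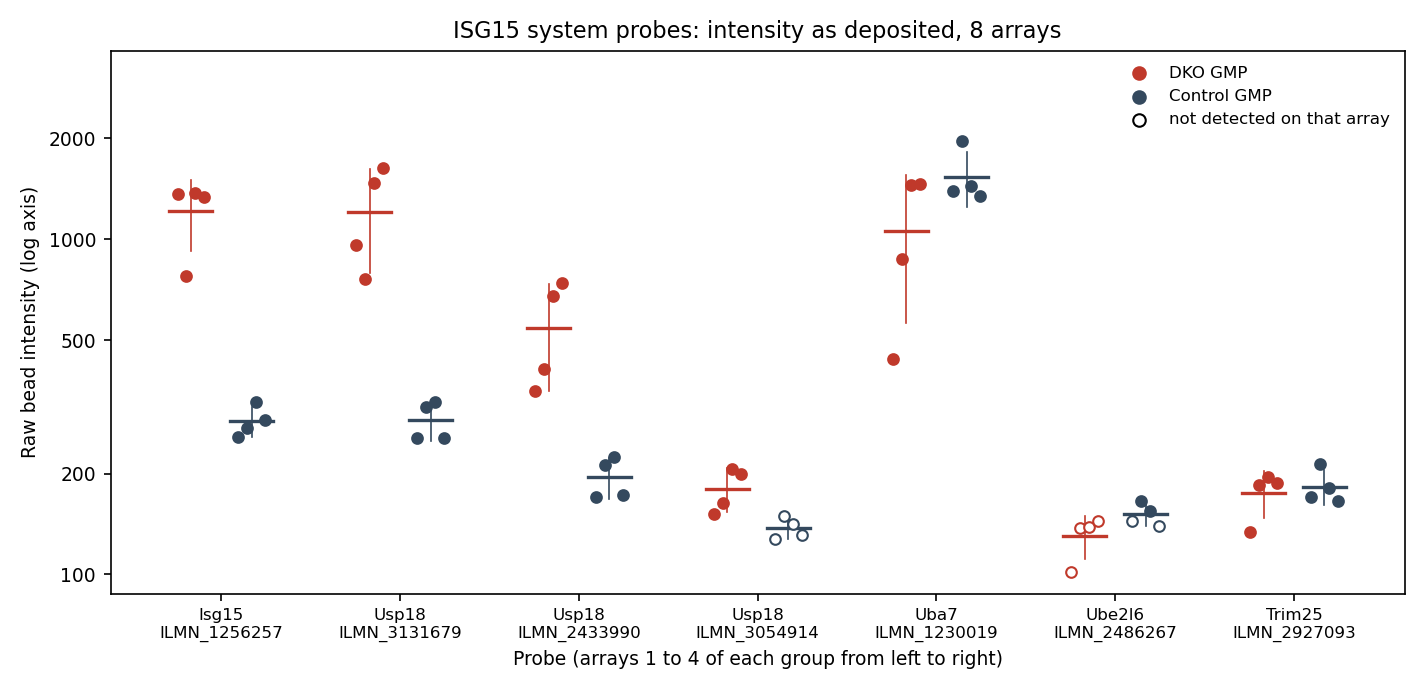
Deposited raw intensity (linear units, log axis) of the 7 member probes in each of the 4 DKO samples, drawn left in red, and the 4 control samples, drawn right in blue; open symbols mark arrays on which the probe was not detected, and bars and lines mark the mean and ± SD. Isg15 reached 779.5 to 1372 in DKO and 257 to 327 in control without overlap, while the Uba7, Ube2l6 and Trim25 intensities overlapped between the groups.

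The promoter of Isg15 is shown because it holds a run of the interferon-stimulated response element, a sequence known from promoters of interferon-induced genes, and that of Uba7 because it is the tested member that was not called. The RefSeq windows (build GRCm38.p6) run from 250 bases before to 50 bases after the annotated start, and 5 of the 6 members matched a window. The motif searched was GAAA followed, after any 2 bases, by GAAA, on both strands and with overlapping matches counted. Capitals mark its matches. The Isg15 window is chr4:156200769-156201068 on the minus strand, and the Uba7 window is chr9:107975317-107975616 on the plus strand.
Isg15: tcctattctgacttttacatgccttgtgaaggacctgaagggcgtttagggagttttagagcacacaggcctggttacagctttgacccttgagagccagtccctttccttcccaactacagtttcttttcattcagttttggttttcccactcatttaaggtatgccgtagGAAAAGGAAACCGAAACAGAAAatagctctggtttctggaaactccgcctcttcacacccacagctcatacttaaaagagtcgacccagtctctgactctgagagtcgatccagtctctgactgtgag
Uba7: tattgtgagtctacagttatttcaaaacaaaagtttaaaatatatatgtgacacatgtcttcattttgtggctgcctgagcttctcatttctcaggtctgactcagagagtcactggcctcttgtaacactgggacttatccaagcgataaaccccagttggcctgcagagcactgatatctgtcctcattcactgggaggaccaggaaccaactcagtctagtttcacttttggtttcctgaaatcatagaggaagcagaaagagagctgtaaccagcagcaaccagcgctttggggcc
The Isg15 window held 3 overlapping matches, GAAAAGGAAA, GAAACCGAAA and GAAACAGAAA, which start 78, 72 and 66 bases before the gene's start. The windows of Uba7, Ube2l6, Trim25 and Herc6 held no match to these letters. Usp18 was the member without a window, so its promoter was not searched. Among all 32851 windows, 3.44% held a match. A match is a description of the letters and not a measured binding site.

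Usp18, the deconjugating protease and brake on the receptor, was read by 3 probes, all called higher in DKO. The brightest had intensities of 959, 762, 1469 and 1631 in DKO, against 255, 315, 328 and 256 in control. The second had 352, 411, 677 and 740.3 in DKO, against 171, 213, 225 and 173 in control. The dimmest had 152, 163, 207 and 199 in DKO, against 127, 149.5, 141 and 131 in control. On each probe the lowest DKO sample was above the highest control sample, by the smallest margin on the dimmest, which was detected on all 4 DKO arrays and on 0 of 4 control arrays.

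On the normalized log2 scale the brightest Usp18 probe averaged 10.32 ± 0.55 in DKO and 7.15 ± 0.18 in control (SD, n = 4 each). Its difference was 3.17 (SE 0.24, 95% interval 2.64 to 3.70, limma adjusted p = 3.89e-05), or 8.99-fold. The second averaged 9.04 ± 0.41 in DKO and 6.03 ± 0.33 in control and differed by 3.01 (SE 0.23, limma adjusted p = 3.59e-05). These were ranks 4 and 7 of all tested probes. The dimmest probe entered the test only through the DKO arrays, where it is high, so its limma adjusted p of 0.00142 is no separate support. The control arrays give only a limit for it, and on the background-corrected scale it was at least 2.65-fold higher in DKO, against a ratio of raw means of 1.31. That bound sets the DKO mean against the lowest signal of a detected probe on each control array or, where higher, the probe's own signal. Without background correction the folds of the 3 probes were 5.37, 3.49 and 1.53. The brightest and second probes remained past the threshold. So did the dimmest, whose call there is again no separate support.

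**Figure D2:**
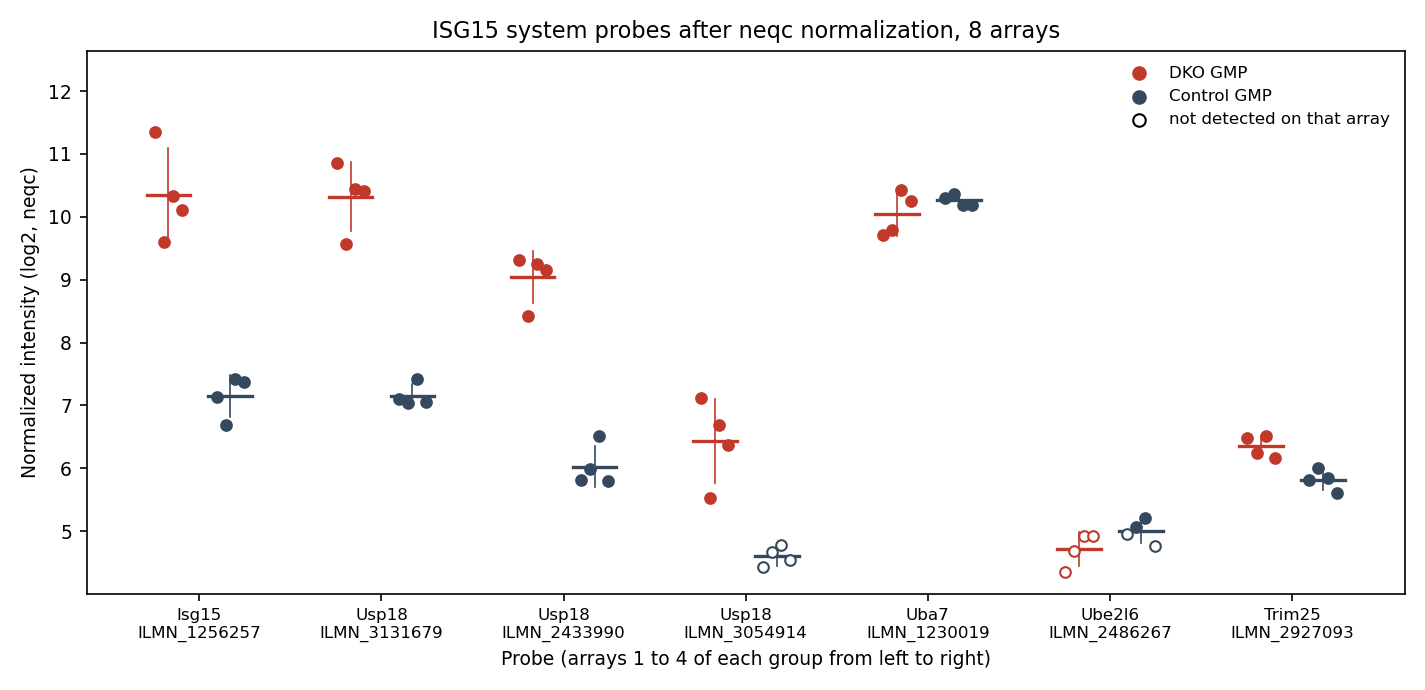
Background-corrected, quantile-normalized log2 intensity of the 7 member probes in the 4 DKO samples (left, red) and the 4 control samples (right, blue); bars and lines mark the mean and ± SD, and open symbols arrays on which the probe was not detected. Isg15 averaged 10.35 in DKO and 7.15 in control, while Uba7 averaged 10.05 in DKO and 10.26 in control.

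Uba7, the E1 enzyme that starts ISG15 transfer, was detected on all 8 arrays and was not called. Its intensities were 441, 873, 1455 and 1467 in DKO, against 1396, 1970, 1443 and 1349 in control. DKO 1 and DKO 2 lay below every control sample, and DKO 3 and DKO 4 lay within the control range. After normalization it read 9.72, 9.79, 10.43 and 10.26 in DKO, against 10.30, 10.37, 10.19 and 10.18 in control. The groups overlapped, and the SD was 0.35 in DKO and 0.091 in control. The difference was -0.21 (SE 0.17, limma adjusted p = 0.413), and its 95% interval of -0.59 to 0.17 leaves out a rise of the size seen for Isg15 or Usp18. Without DKO 1 and DKO 2, a choice made after seeing the data, the difference turned to 0.085 (limma adjusted p = 0.708).

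Ube2l6, the E2 enzyme, was measured near background. Its probe had intensities of 102, 137, 139 and 144 in DKO, against 145, 165, 155 and 140 in control, and was detected on 0 of 4 DKO arrays and 2 of 4 control arrays. It therefore missed the filter and was not tested in the comparison. Its normalized log2 values averaged 4.72 ± 0.27 in DKO and 5.0 ± 0.19 in control (SD, n = 4 each). With no filter on dim probes, where 8.63% of all 25697 probes and the same number of member genes, 3, were called, the limma adjusted p of Ube2l6 was 0.362. A change below the detection limit was not detectable with this probe.

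Trim25, a TRIM family ligase that also attaches ubiquitin to RIG-I, showed a small difference that depended on the processing and on the samples used. Its intensities were 134, 185, 195 and 187 in DKO, against 171, 214, 182 and 165 in control. These raw values overlapped, with a ratio of means of 0.960. After normalization the values were 6.48, 6.24, 6.51 and 6.16 in DKO, against 5.81, 6.01, 5.85 and 5.60 in control, and no longer overlapped. The difference was 0.53 (SE 0.14, 95% interval 0.22 to 0.84, limma adjusted p = 0.0207), or 1.44-fold, at rank 1106 of the tested probes. The difference stayed positive but the call was lost in 9 of 18 other settings. Among them were no background correction (0.19, limma adjusted p = 0.0707) and the authors' processed values (0.17, limma adjusted p = 0.0785). Alignment of arrays by their medians (0.11, limma adjusted p = 0.794) and leaving out control 4 (0.46, limma adjusted p = 0.0625) were others.

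The rises of Isg15 and Usp18 were also set against the ligase and the E1 enzyme within each array, where a shift common to all log2 values of the array cancels. The log2 difference of Isg15 minus Uba7 averaged 0.30 ± 0.89 in DKO and -3.11 ± 0.42 in control (SD, n = 4 each). That of Usp18 minus Uba7 averaged 0.27 ± 0.61 in DKO and -3.11 ± 0.24 in control. The groups differed by 3.41 log2 units in the first of these and by 3.38 in the second. Against Trim25 the group differences were 2.67 for Isg15 and 2.64 for Usp18. These pairs were chosen after the data were seen, so the values are a description and restate the differences of the single probes.

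**Figure D3:**
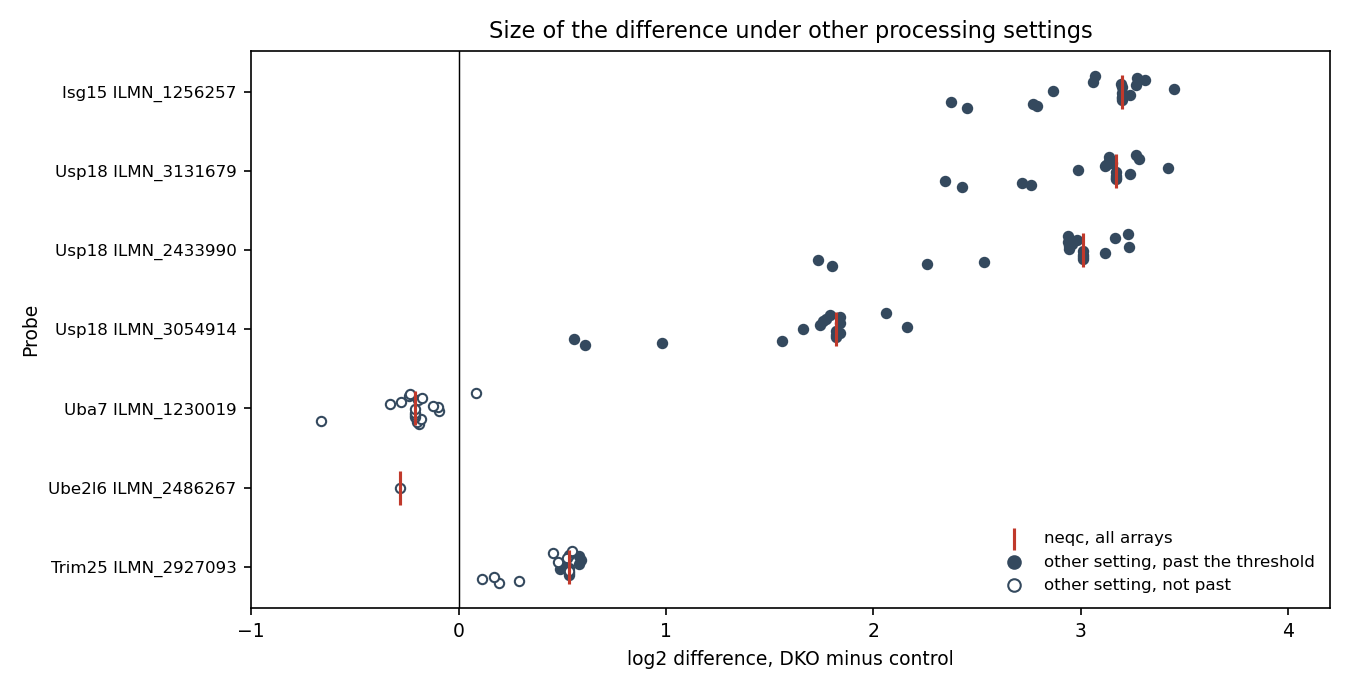
Log2 difference, DKO minus control, of each tested member probe under every processing setting, filled where the adjusted p was under 0.05 and open where it was not. Isg15 and the brightest and second Usp18 probes stayed above 0 and past the threshold in every setting. The dimmest Usp18 probe also stayed above 0, but it entered the test through the DKO arrays alone, so its calls are no separate support. Trim25 stayed above 0 with the call lost in 9 of 18, and Uba7 was never called.

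Isg15 and Usp18 had the most similar profiles to each other. Likeness was measured as the root mean square difference of mean-centred log2 values over the 8 arrays, among 7490 genes, leaving out names that are only clone or locus numbers. It was 0.265 log2 units between Isg15 and Usp18, and no other of these genes lay nearer to either. Next to Isg15 came Foxd4 at 0.449, Dnmt3l at 0.491, Smpdl3b at 0.492 and Degs2 at 0.497. Next to Usp18 came Rsad2, the interferon-induced antiviral protein viperin, at 0.312, Foxd4 at 0.316, Lcn2 at 0.330 and Oas2, an oligoadenylate synthetase, at 0.358. Uba7 lay 1.81 from Isg15 and 1.74 from Usp18, and Trim25 lay 1.42 and 1.36 from them. Uba7 and Trim25 lay 0.444 from each other.

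Because Isg15 and Usp18 differed between the groups by over 3 log2 units, a gene picked for the same profile had to be higher in DKO too, and the levels of these neighbours are given as a description. Oas2 averaged 8.56 ± 0.48 log2 units in DKO and 5.14 ± 0.23 in control (SD, n = 4 each). Rsad2 averaged 8.84 ± 0.34 in DKO and 5.44 ± 0.35 in control. The size of these differences depended on the background correction. Oas2 differed by 3.42 with it and by 1.70 without it, and Rsad2 by 3.40 with it and by 1.83 without it, while Isg15 differed by 3.20 with it and by 2.45 without it. Isg15 and the brightest Usp18 probe held ranks 2 and 3 by the size of the rise without the correction, against 3 and 4 with it. The Foxd4, Smpdl3b and Degs2 probes were detected on all 4 DKO arrays and on 0 of 4 control arrays.

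Outside the system, other interferon-induced genes were read from a fixed list. Of 41 measured genes 26 were higher in DKO, 2 were lower and 13 did not pass, with a median difference of 0.78, whereas of all 7604 genes tested 10.1% were higher and 14.3% lower, with a median of -0.028. With arrays aligned by medians, 14 were higher and 3 lower. The measured genes include Rtp4, which was detected on 0 of 4 control arrays and passed the filter through the DKO arrays alone. Ifitm3, which blocks virus entry, rose by 1.91 (limma adjusted p = 1.61e-05), and Samd9l, an interferon-induced restriction factor, by 1.91 (limma adjusted p = 3.32e-05). The genes lower in DKO were Ly6e at -0.92, and Psmb9, a subunit of the immunoproteasome, at -0.68. In promoter windows the same motif was in 11 of 21 of the higher genes with a window and in 6 of the other 13, against 3.88% of tested genes.

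Most transcripts of the interferons themselves were below detection. Of 17 interferon genes on the array, read by 20 probes, 14 probes were detected on 0 of 8 arrays, those for Ifnb1 and Ifng among them. Ifna6 and Ifna1 alone could be tested, and differed by -0.082 (limma adjusted p = 0.672) and -0.083 (limma adjusted p = 0.756).

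The genes that carry the interferon signal to such promoters passed the test in both directions. Of 11 measured, 3 were higher, 3 were lower and 5 did not pass, with a median difference of -0.36, against 10.1% higher and 14.3% lower of all tested genes. Irf7, a transcription factor of the interferon response, differed by 2.27 (SE 0.27, limma adjusted p = 0.000369), or 4.81-fold, and was detected on all 4 DKO arrays and 1 of 4 control arrays. Without background correction the difference of Irf7 was 0.83, and in the authors' processed values 0.77, both past the threshold. Socs3, a feedback inhibitor of cytokine receptors, was detected on 0 of 4 control arrays, passed the filter through the DKO arrays alone, and was at least 2.07-fold higher on the background-corrected scale. Its log2 difference was 0.41 without that correction. Irf9, a DNA-binding factor of the interferon response, rose by 0.70 (limma adjusted p = 0.00989) on 1 of its 2 tested probes, a call lost with arrays aligned by medians. Tyk2, a kinase bound to the interferon receptor, fell by 0.56 (limma adjusted p = 0.0125) on 1 of its 3 probes, a call lost without DKO 1 and DKO 2.

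Among the 10 measured genes of the RIG-I arm, where Trim25 acts on an RNA sensor, 3 were higher and 3 lower, with a median difference of 0.032, against 10.1% higher and 14.3% lower of all tested genes. Irf7 and Irf3 were also counted among the signalling genes, and Irf7 and Dhx58 among the interferon-induced genes. Dhx58, the RIG-I-like receptor LGP2, rose by 1.44 (limma adjusted p = 0.000858). Mavs, the mitochondrial adaptor of the pathway, fell by 0.88 (limma adjusted p = 0.0117), and Rnf135, the ligase Riplet, fell by 0.81 (limma adjusted p = 0.00195) on 1 of its 3 probes. The probe for Ddx58, RIG-I itself, was detected on 1 of 4 DKO arrays and 0 of 4 control arrays and was not tested.

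Partners and reported targets of ISG15 were read against the same shares of all tested genes, 10.1% higher and 14.3% lower. Of 10 measured further enzymes and partners, 1 was higher and 0 lower, with a median of -0.063: Usp14, a deubiquitinase of the proteasome, rose by 0.55 (limma adjusted p = 0.0133), a call lost with arrays aligned by medians (0.025, limma adjusted p = 0.958). Ifnar2, the receptor subunit that Usp18 binds, differed by -0.66 on its brighter probe (limma adjusted p = 0.0605) and by -0.62 on the other (limma adjusted p = 0.0327). The brighter Ifnar2 probe was called lower in 8 of 18 other settings, with -1.19 and a limma adjusted p of 0.0056 under alignment by medians. Of 12 measured substrates, 2 were higher and 1 lower, with a median of -0.13. Eif2ak2, the interferon-induced kinase PKR, rose by 0.87 (limma adjusted p = 0.00481) and Eif4e2, a cap-binding translation repressor, by 0.48 (limma adjusted p = 0.0149), both calls being lost with arrays aligned by medians, and that of Eif4e2 also without control 2 or without DKO 1 and DKO 2. Irf3, which switches on interferon genes, fell by 0.65 (limma adjusted p = 0.0267) on 1 of its 3 probes, a call lost in 6 of 18 settings, among them leaving out any 1 of the control samples or DKO 3.

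The enzyme and modifier families that hold the members were read against the 10.1% higher and 14.3% lower of all tested genes. Beside Uba7, 4 other E1 enzymes were measured and 0 passed in either direction at an adjusted p under 0.05 in limma, with a median of 0.085, and at an unadjusted p under 0.05 there was 1, Uba3 of the NEDD8 pathway (0.47, limma adjusted p = 0.0561). Of 23 measured E2 enzymes 1 was higher and 0 lower, with a median of -0.046. Cdc34, the E2 of the SCF ubiquitin ligases, rose by 0.92 (limma adjusted p = 0.00343), or 1.89-fold, a call lost with arrays aligned by medians. Beside Isg15, 13 ubiquitin and ubiquitin-like modifiers were measured, with 0 higher and 1 lower and a median of 0.014. The lower gene was Map1lc3b, an LC3 protein of autophagy, at -0.71 (limma adjusted p = 0.0118), a call lost without DKO 1 and DKO 2. The 3 HERC ligases measured, Herc2, Herc3 and Herc4, differed by -0.084, -0.049 and -0.19 and did not pass (limma, 0 of 3 at an unadjusted p under 0.05 too).

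Beside Usp18, 25 ubiquitin-specific proteases were measured, with 4 higher, 3 lower and 18 not past the threshold and a median of -0.050. With arrays aligned by medians 1 gene of the family, Usp18 included, was higher and 4 were lower. Usp28 was detected on 0 of 4 DKO arrays, passed the filter through the control arrays alone, and was at least 1.66-fold lower on the background-corrected scale. Its log2 difference was -0.32 without that correction. Usp11 fell by 1.26 on its brighter probe (limma adjusted p = 0.000536), or -0.41 without background correction, and differed by -0.21 on the other (limma adjusted p = 0.362). The brighter Usp11 probe was detected on 1 of 4 DKO arrays and 4 of 4 control arrays, so the size of its fall is uncertain. Beside Trim25, 17 other TRIM proteins were measured, with 3 higher and 1 lower and a median of 0.12. Trim30a rose by 0.62 (limma adjusted p = 0.00569). Trim37 and Trim21 were also higher, calls lost in 2 of 17 and in 12 of 18 other settings. Trim45 was lower, a call lost in 9 of 18. With arrays aligned by medians 0 of the 18 TRIM genes, Trim25 included, were called higher.

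**Figure D4:**
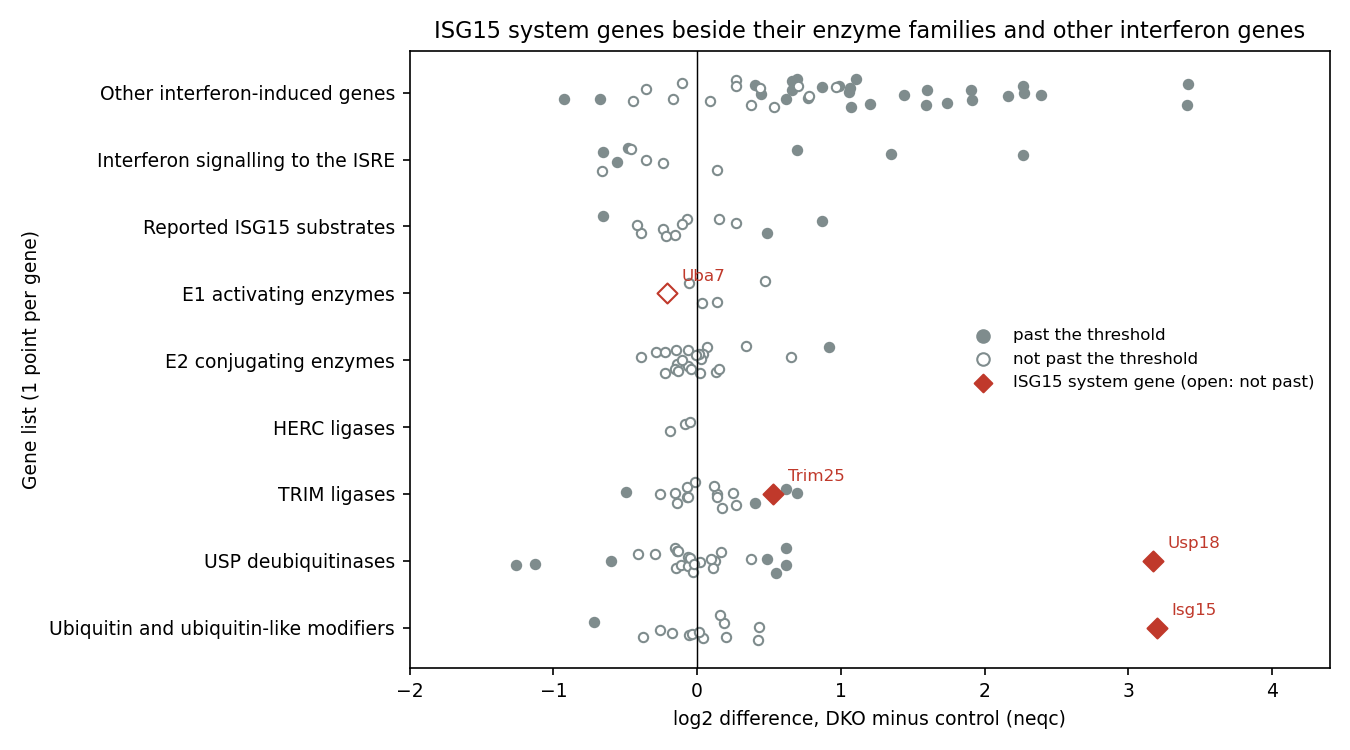
Log2 difference, DKO minus control, of the measured genes in each enzyme or modifier family and gene list, 1 point per gene, filled where the adjusted p was under 0.05. Isg15 and Usp18, at 3.20 and 3.17, stand above the other measured members of the modifier and USP families.

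Markers of other cell types that the sort could hold were read beside these values. All 13 GMP marker genes on the array were detected, with 0 higher and 2 lower in DKO by their brightest probe. The lower genes were Cd34, which the sort used (-1.42, limma adjusted p = 0.000858), and Csf2ra, a chain of the GM-CSF receptor (-0.68, limma adjusted p = 0.00814). Of the 3 probes for Mpo, the granule enzyme myeloperoxidase, 2 were also called lower, at -0.63 and -1.04. The brightest Mpo probe differed by 0.19 (limma adjusted p = 0.340). In the other direction, a dimmer probe of Fcgr2b was called higher at 0.63 (limma adjusted p = 0.0046), and so was a dimmer probe of Cebpe at 0.61 (limma adjusted p = 0.0452). For plasmacytoid dendritic cells, strong producers of interferon, summed levels were 2934 to 3479 in DKO and 1944 to 2410 in control. Of 9 listed genes 5 were tested and 2 were higher, Irf7 and Bst2, both interferon-induced themselves. Bst2, the brightest of the list, averaged 11.04 log2 units in DKO and 10.06 in control. Siglech, Tcf4 and Cox6a2 differed by -0.065, -0.21 and 0.039 and did not pass. Ly6d was detected on no DKO array and, by probe, on 2 or 3 of 4 control arrays. Pacsin1, Klk1 and Ccr9 were detected on no array. Monocyte and dendritic cell markers summed to 5307 to 7341 in DKO and 17789 to 27140 in control, with 7 of 7 tested genes lower. Late neutrophil markers summed to 42406 to 57076 in DKO and 35810 to 39445 in control, with 4 of 8 tested genes higher. Of these higher genes, Stfa1 was detected on 0 of 4 control arrays and passed the filter through the DKO arrays alone. Of 2 tested lymphocyte markers 1 was higher, Thy1, and 1 lower, Cd79b. The 1 tested natural killer marker, Nkg7, was lower. Of 7 tested erythroid and megakaryocyte markers 2 were lower, Epor and Slc4a1, both detected on 0 of 4 DKO arrays. Of 8 basophil, mast cell and eosinophil markers 0 were called by their brightest probe. Of all tested genes, 10.1% were higher and 14.3% lower. The part of these shifts in the rises of Isg15 and Usp18 was not tested.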

How the data were processed

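RNA of 8 GMP samples was hybridised in 1 colour to Illumina MouseRef-8 v2.0 BeadArrays. The deposited non-normalized table holds linear bead intensity with no sign of background subtraction in its values. Beside it the file headers name a detection p-value for each probe, deposited by the authors with no method given. The authors' processed table holds log2 values, quantile-normalized and centred per probe as found by comparison with the intensities. Its centre is unknown, and its column medians lay between -0.0044 and -0.0005. The submitters' processing notes name GenomeStudio. Intensities were background-corrected by normexp, with the background inferred from the detection p-values, quantile-normalized and log2-transformed (neqc, offset 16), in R 4.3.3 with limma 3.58.1. Probes with a detection p under 0.05 on at least 4 of 8 arrays were fitted with lmFit and eBayes on genotype, and p-values were Benjamini-Hochberg adjusted over all 10856. The number of arrays limits precision.

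The platform annotation, which can be old, names 23978 probes with 1 symbol each, 0 with several, and leaves 1719 unnamed. A gene list counts each gene by its brightest tested probe. Lists share some genes, so their counts are not separate. Named genes were every member probe, the targeted genes, up to 4 genes per list by smallest p, genes of counts of 5 or fewer, and the 5 nearest profiles to Isg15 and Usp18. The members and lists were chosen with earlier results of these data known. Alternatives varied background correction, normalization, filter, variance model, array weights, block and samples, and leaving out DKO 1 with DKO 2 was added after seeing the data. Fitting was tested on simulated data.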

Additional observations from a re-analysis of the deposited data

How the results depend on the processing

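Over 18 alternatives the Isg15 difference stayed positive and past the threshold (2.38 to 3.24, and 2.86 to 3.45 when each sample was left out). So did those of the brightest and second Usp18 probes. The Usp18 probe detected in no control sample also stayed positive, but its calls are no separate support. That probe was not tested among probes detected on all arrays. The Trim25 call was lost with no background correction (0.19), normexp without controls (0.29), alignment by medians (0.11), the authors' values (0.17), trended and robust variance (0.53) and without both DKO 1 and DKO 2 (0.55). It was also lost without DKO 3, control 1 or control 4, over a range of 0.46 to 0.59 for each sample left out. In these settings 2 member genes were called in place of 3. Uba7 ranged from -0.66 with medians to 0.085 (adjusted p = 0.708) without DKO 1 and DKO 2, and from -0.33 to -0.097 with each sample left out. Alignment by medians shifted the median of all tested probes by -0.40, and called 148 probes higher and 2335 lower, against 1125 and 1344. Relative to that shift Isg15 stood at 3.17, Trim25 at 0.52 and Uba7 at -0.26. Trim21 turned to -0.14 there, against 0.40. The number of probes past the threshold was between 1549 (without control 2) and 2472 with each sample left out, against 2469. Whether sample numbers pair the groups could not be settled from 4 samples each. Deviations of same-numbered samples correlated at 0.19, 0.026, -0.11 and 0.20, and those of differently numbered samples at -0.17 to 0.12. With the replicate number as a block Isg15 stayed at 3.20 (adjusted p = 0.000658) and Trim25 at 0.53 (adjusted p = 0.0318), and no member call changed. Ube2l6 and the dimmest Usp18 probe are limited by signal over background.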
